A study of Mus musculus with 298 samples.

Results

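Immediate-early genes were followed cell by cell in thoracic sympathetic ganglia of mice. The 10 genes were Fos, Fosb, Jun, Junb, Egr1, Atf3, Btg2, Ier2, Ier3 and Dusp1, taken by name from a table of 16892 genes, in which all 10 were present. They were described by the labelled identity of the cell, by collection, by microfluidic chip and by cell. The mice came from a cross of Wnt1-Cre with R26R-Tomato, in which cells descended from the neural crest carry the red reporter. No treatment was given, and ages ran from postnatal day 11 to day 38. The labels gave 8 Ach1, 8 Ach2 and 4 Glutamatergic cells, 85 Unclassified cells, and 193 noradrenergic cells. Of the noradrenergic cells, 10 were Noradrenergic1, 39 Noradrenergic2, 18 Noradrenergic4 and 23 Noradrenergic5, and the rest, the largest identity, were Noradrenergic3. The labels name no animals, so a collection, meaning all cells of the same sex and age, served as the replicate, and there were 10 collections. Every cell had gone through warm enzymatic dissociation, density cleaning and capture on a chip, and no ganglion left whole was analysed here. Transcripts present in the tissue and transcripts made during preparation therefore cannot be told apart in any value below.

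Immediate-early genes are switched on within minutes of a stimulus, without new protein synthesis, when kinases of the MAP kinase and cAMP pathways act on factors already bound at their promoters. In neurons they are known as markers of recent activity, and they are also known to be switched on by injury and by the handling of tissue. Fos, Fosb, Jun and Junb encode subunits of the AP-1 transcription factor, and Atf3 encodes a related factor that is induced in injured neurons. Egr1 encodes a zinc finger transcription factor. Dusp1 encodes a phosphatase that inactivates MAP kinases, and Btg2 encodes an antiproliferative protein that promotes the shortening of mRNA tails. Ier2 and Ier3 encode small early response proteins, of which Ier3 is tied to stress and survival signals.

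The cells, from 24 chips, held 7225 to 81589 counts each (median 33099). Levels are given as counts per 10000 counts of the cell or pool, and the levels of different genes are not compared with each other. The 5 cells of the P16 collection were labelled female but held counts of Y-linked genes in 5 cells and of Xist in 0, so that label is in doubt. The noradrenergic identities held the sympathetic marker list at a median of 229 to 366 per cell, against 137 in Ach1, 136 in Ach2, 87.6 in Glutamatergic and 282 in Unclassified cells. All 10 genes of that list had counts in each identity. The satellite glia and Schwann list, 14 genes, stood at a median of 29.7 in Ach1, 31.2 in Ach2, 28.8 in Glutamatergic and 26.9 in Unclassified cells, against 4.95 to 9.61 in the noradrenergic identities. Erbb3 was the member of that list at 0 in Ach1 and Glutamatergic cells. Counts of Jun, Junb and Dusp1 are uncertain, because in the GENCODE M21 annotation an exon of each overlaps an exon of a gene on the opposite strand (Junos, Prdx2 and Ergic1), and whether strand was used in counting is not given in the sources used here.

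Fos was the most widely detected of the 10 genes, with a count in 291 of 298 cells, and Ier2 the least, with a count in 116 cells. Fos supplied 32.1% of the counts of the 10 genes and Jun 15.7%, so sums over the genes follow these 2 most. Summed over the 10 genes, the median cell stood at 14.7 in Ach1, 21.7 in Ach2, 41.8 in Glutamatergic and 19.3 in Unclassified. Of the noradrenergic identities, Noradrenergic1 was highest with a median of 14.9 and Noradrenergic2 next with 11.7, while Noradrenergic5 (10.4), Noradrenergic3 (9.07) and Noradrenergic4 (8.05) followed. Single cells spread widely within an identity, and the Noradrenergic3 cells alone covered 1.43 to 36.8.

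By identity, Fos averaged 11.1 ± 6.78 counts per 10000 in Glutamatergic (SD over 3 collections), 10.2 ± 12.6 in Ach1 (7 collections) and 9.69 ± 5.85 in Ach2 (4 collections). It averaged 7.40 ± 2.53 in Noradrenergic1 (5 collections) and 7.33 ± 3.20 in Unclassified (7 collections). The other noradrenergic identities followed at 4.73 ± 1.83 in Noradrenergic2 (7 collections), 3.28 ± 1.11 in Noradrenergic4 (5 collections), 2.95 ± 1.16 in Noradrenergic3 (7 collections) and 2.82 ± 1.58 in Noradrenergic5 (6 collections). No neighbouring pair in this order differed by more than the larger of its SDs. Glutamatergic cells had the highest mean for Fosb, Jun, Junb, Egr1, Btg2, Ier2 and Dusp1 as well, and Ach2 cells for Atf3 and Ier3. Noradrenergic4 cells had the lowest mean for Fosb, Jun, Atf3, Btg2, Ier2 and Dusp1, Noradrenergic5 cells for Fos, Junb and Ier3, and Noradrenergic3 cells for Egr1.

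**Figure D1:**
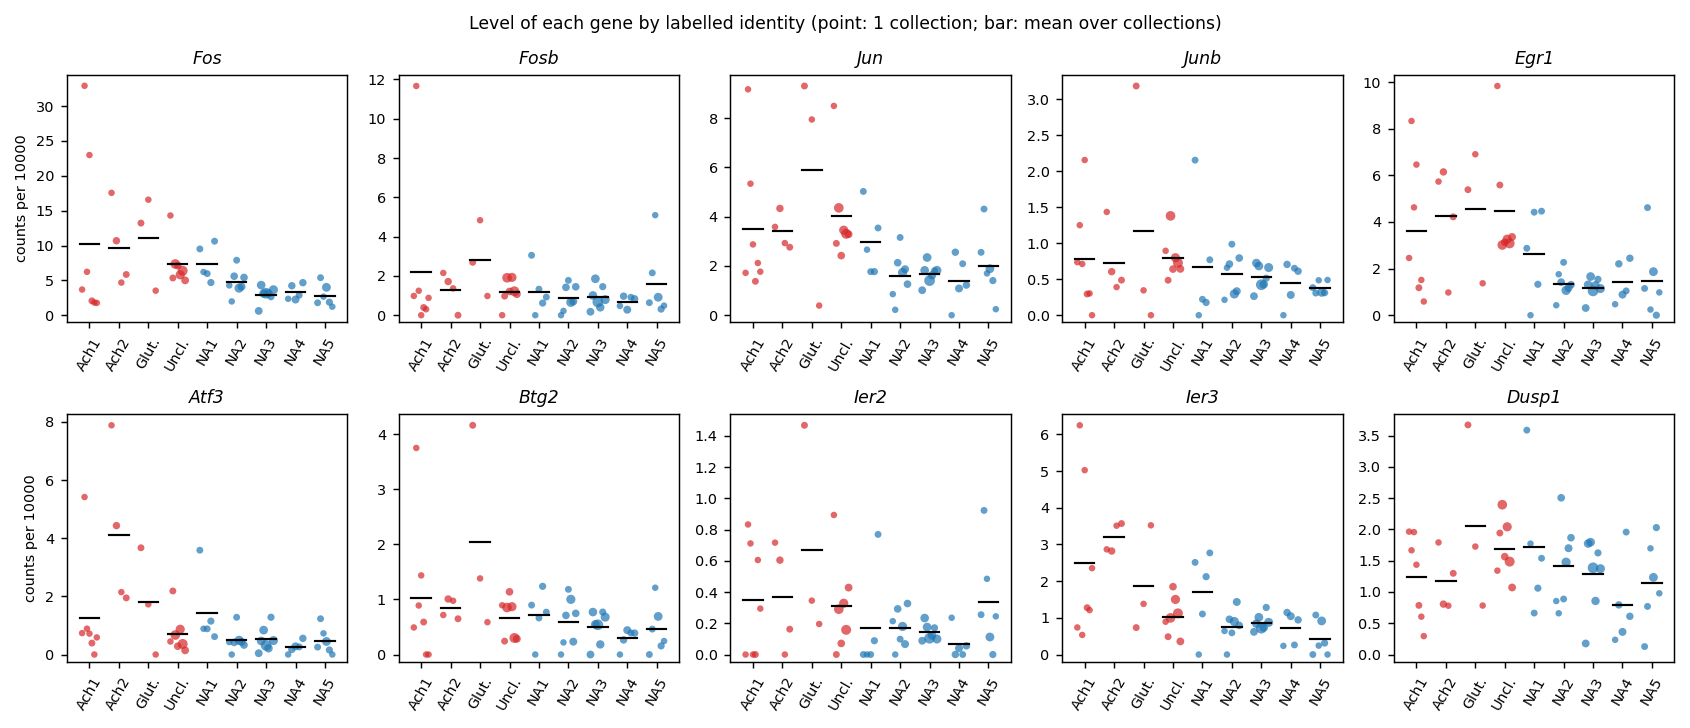
Level of each of the 10 genes in counts per 10000 (vertical axes, linear, separate scales), by labelled identity (horizontal axes; Glut. is Glutamatergic, Uncl. Unclassified and NA1 to NA5 Noradrenergic1 to Noradrenergic5). A point is the pooled cells of 1 collection, larger for more cells, a bar is the mean over collections, and Fos means run from 11.1 in Glutamatergic to 2.82 in Noradrenergic5.

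The transcript of Ier3 was higher in cholinergic than in noradrenergic cells in each collection that held both. Pooled by collection, it had a lowest value of 1.21, a median of 1.95 and a highest of 5.03 in cholinergic cells, against 0, 0.924 and 1.10 in noradrenergic cells. The 7 cholinergic values thus lay above all 10 noradrenergic ones. On summed libraries the log2 fold change was 1.18 with an SE of 0.22 (edgeR adjusted p = 6.83e-06). Atf3 had a lowest value of 0, a median of 1.46 and a highest of 4.63 in cholinergic cells, against 0, 0.449 and 0.951 in noradrenergic cells. These groups overlapped, cholinergic cells being higher in 4 of 7 collections, and the log2 fold change was 1.17 with an SE of 0.27 (edgeR adjusted p = 0.000626). These were 2 of the 10 genes, both higher, where 4.57% of the 11555 genes tested were called in either direction.

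None of the AP-1 subunits passed. The log2 difference of Fos was 0.46 (SE 0.20, edgeR adjusted p = 0.210), that of Jun 0.43 (SE 0.20, edgeR adjusted p = 0.266), that of Fosb 0.03 (SE 0.43, edgeR adjusted p = 1) and that of Junb -0.27 (SE 0.34, edgeR adjusted p = 0.778). Egr1 stood at 0.71 (SE 0.32, edgeR adjusted p = 0.265), with cholinergic cells higher in 6 of 7 collections. It passed when P30 female (0.78), P33 female (0.71) or P38 male (0.83) was left out (edgeR adjusted p = 0.0116, 0.0269 and 0.0334). The median over the 10 genes was 0.44 and that over all genes tested was -0.20. Among related genes, 0 of 7 AP-1 relatives tested were called (edgeR, 1 at an unadjusted p under 0.05; DESeq2 was not read for these lists). Of 4 other MAP kinase phosphatases 1 rose, Dusp6, at 1.73, and 1 fell, Dusp10, at -2.64, while Gem, a small GTPase induced early, rose by 1.95 as 1 of 11 NR4A and activity genes. Of 23 other early response genes 1 rose, Btg1 at 1.48, and 0 of 14 upstream kinases and factors were called (edgeR, 3 at an unadjusted p under 0.05). Of 10 axon injury genes 1 rose, Sox11 at 1.52, and 2 fell, the neuropeptide gene Gal at -5.49 and Ecel1 at -4.61. Of 13 glial genes 2 rose, Pmp22 at 1.19 and Sostdc1 at 1.35.

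With the glial level as a covariate the Ier3 value was 1.06 (edgeR adjusted p = 0.000731), and the Atf3 value was 0.78 (edgeR adjusted p = 0.148). Leaving out the P29 male collection gave Atf3 a value of 0.80 (edgeR adjusted p = 0.284), and libraries of at least 2 cells, which left fewer samples, ended both calls (edgeR adjusted p = 0.488 for Atf3 and 0.128 for Ier3). Thinning cells to 15000 counts also ended both, at 0.91 for Atf3 and 0.92 for Ier3 (edgeR adjusted p = 0.212 and 0.0917). Thinning left out the 20 cells with fewer counts, 17 of them Unclassified and 1 of them Ach1, so it changed the set of cells as well as depth. Without the P16 cells the values were 1.12 for Atf3 and 1.18 for Ier3 (edgeR adjusted p = 0.00186 and 1.43e-05).

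Btg2 and Jun were higher in Glutamatergic than in noradrenergic cells. Btg2 had 4.16, 1.38 and 0.587 counts per 10000 in the Glutamatergic cells of P29 male, P31 female and P33 female, against a lowest of 0, a median of 0.625 and a highest of 0.736 over 10 noradrenergic pools. Jun had 9.30, 7.94 and 0.391 in the same Glutamatergic pools, against 0.220, 1.63 and 2.45 in noradrenergic cells. The single P33 cell was thus low for Jun while the other 2 pools lay above every noradrenergic one. The log2 fold change of Btg2 was 1.52 with an SE of 0.44 (edgeR adjusted p = 0.0290) and that of Jun was 1.00 with an SE of 0.31 (edgeR adjusted p = 0.0440). They were 2 of the 10 genes, against 2.63% of all genes called, and a median of 1.04 over the 10 genes stood beside -0.39 over all genes.

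Fos had 13.2, 16.6 and 3.52 in the 3 Glutamatergic pools, higher than the noradrenergic cells of the same collection in 3 of 3, and its log2 difference was 0.91 (SE 0.30, edgeR adjusted p = 0.0708). Egr1 was likewise higher in 3 of 3, at 1.07 (SE 0.53, edgeR adjusted p = 0.417), and Dusp1 had the smallest value, 0.19 (SE 0.39, edgeR adjusted p = 0.919). Bdnf, a neurotrophin and an activity-induced gene, rose by 6.04 on the log2 scale as 1 of 11 NR4A and activity genes. Of 23 other early response genes 2 rose, Gadd45g at 1.88 and Nfkbiz at 2.73, and of 10 axon injury genes 2 rose, Flrt3 at 3.64 and Il6 at 4.18. The group holds 4 cells in 3 libraries. Without the P29 male collection 0 of the 10 genes passed, with Btg2 at 0.71 and Jun at 0.68 (edgeR adjusted p = 0.783 and 0.684). Without P31 female Jun stood at 0.54 (edgeR adjusted p = 0.762), and without P33 female Fos, Egr1, Jun and Btg2 were called, at 1.18, 1.34, 1.58 and 1.56 (edgeR adjusted p = 0.0294, 0.0305, 0.000579 and 0.0465). Egr1 also passed without P30 female, at 1.07 (edgeR adjusted p = 0.0355). Leaving out the collections of P16, P34 or P38 moved Jun to an edgeR adjusted p of 0.0506, 0.0531 or 0.0747. With the glial level as a covariate neither gene passed, Btg2 at 1.42 and Jun at 0.52 (edgeR adjusted p = 0.109 and 0.583). Without a term for the collection 0 were called, at 1.56 for Btg2 and 1.25 for Jun (edgeR adjusted p = 0.310 and 0.251).

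Within the cholinergic cells, Atf3 was lower in Ach1 than in Ach2. The Ach1 collections had a lowest value of 0, a median of 0.718 and a highest of 5.42, against 7.88, 4.43, 2.15 and 1.95 in the 4 Ach2 collections. A single Ach1 cell of P29 male reached into the Ach2 range, and Ach1 was lower in 3 of 4 collections that held both. The log2 fold change was -1.68 with an SE of 0.39 (edgeR adjusted p = 0.0208), the only call among the 10 genes, where 0.138% of all genes were called. Ier3 stood at -0.94 (SE 0.36, edgeR adjusted p = 0.506). The Atf3 call did not survive leaving out P16 (-1.28, edgeR adjusted p = 0.459), P31 female (-1.57, 0.0815), P33 female (-1.57, 0.0683) or P38 male (-1.71, 0.0944), and DESeq2 gave an adjusted p of 0.739. The fit without a term for the collection gave -2.06 (edgeR adjusted p = 0.465). The call was kept in 8 of 19 alternatives.

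In Noradrenergic1 cells Atf3 and Ier3 were higher than in the other noradrenergic identities. Atf3 had 3.59, 1.15, 0.886, 0.884 and 0.616 in the 5 Noradrenergic1 collections, against a lowest of 0, a median of 0.428 and a highest of 0.951 over 9 pools of the other 4 identities. Noradrenergic1 was higher in 4 of 4 collections, and the log2 fold change was 1.36 with an SE of 0.35 (edgeR adjusted p = 0.0133). Ier3 had 2.77, 2.51, 2.12, 1.10 and 0 in Noradrenergic1, against 0, 0.871 and 0.951 in the others, with a log2 fold change of 1.09 and an SE of 0.30 (edgeR adjusted p = 0.0244). Both ranges overlapped those of the other identities. Fos was higher in 4 of 4 collections too, at 0.43 (SE 0.25, edgeR adjusted p = 0.635). Of all genes 1.39% were called, against 2 of these 10.

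The Noradrenergic1 medians of the glial list lay within those of the other noradrenergic identities, at 7.01 against 4.95 to 9.61, and with that level as a covariate Atf3 stood at 1.32 and Ier3 at 1.08 (edgeR adjusted p = 0.0201 and 0.0244). Both calls ended without P29 male (0.91 and 1.00, edgeR adjusted p = 0.688 and 0.239) and without P31 female (1.32 and 1.24, edgeR adjusted p = 0.167 and 0.121). Ier3 was also lost without P33 female (edgeR adjusted p = 0.0690) and P38 male (0.433), and DESeq2 called neither (adjusted p = 0.385 for Atf3 and 0.444 for Ier3). Without a term for the collection the values were 1.57 and 1.17 (edgeR adjusted p = 0.258 and 0.172).

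The other 4 noradrenergic identities had no call among the 10 genes by edgeR or by DESeq2. At an unadjusted edgeR p under 0.05 there were 2 genes each for Noradrenergic2 and Noradrenergic4, 1 for Noradrenergic5 and 0 for Noradrenergic3. The shares of all genes called by edgeR were 1.64% for Noradrenergic2, 1.74% for Noradrenergic3, 1.25% for Noradrenergic4 and 1.41% for Noradrenergic5. Dusp1 in Noradrenergic4 came nearest, at -0.86 (SE 0.30, edgeR adjusted p = 0.172), and passed without P33 female at -1.29 (edgeR adjusted p = 0.0250). In libraries of at least 2 cells it also passed, at -1.0, and so did Fos at -0.48 and Egr1 at -0.59 in Noradrenergic3 (edgeR adjusted p = 0.0136, 0.00887 and 0.0101).

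**Figure D2:**
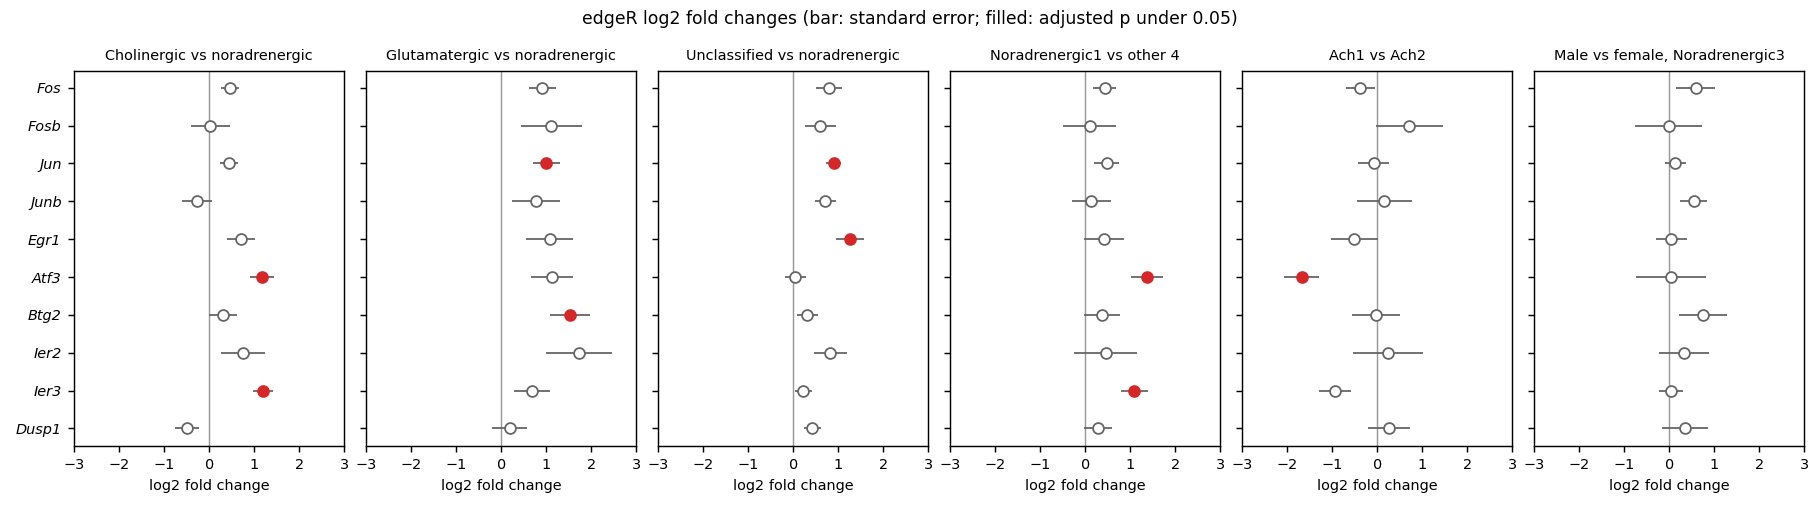
edgeR log2 fold changes of the 10 genes (horizontal axes) in 6 comparisons, with bars of 1 standard error and filled points where the adjusted p was under 0.05. Filled points stand for Atf3 and Ier3 in the cholinergic and the Noradrenergic1 panels, Jun and Btg2 in the Glutamatergic panel, Jun and Egr1 in the Unclassified panel and Atf3 in the Ach1 panel.

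Unclassified cells, which the labels left without an identity, had more Jun and Egr1 transcript than noradrenergic cells. Jun had a lowest value of 2.42, a median of 3.30 and a highest of 8.49 in 7 Unclassified pools, against 0.220, 1.63 and 2.45 in 10 noradrenergic pools. It was higher in Unclassified cells in 6 of 7 collections. Egr1 had 3.01, 3.26 and 9.83 in Unclassified pools, against 0.428, 1.5 and 4.42 in noradrenergic pools, and was higher in Unclassified cells in 7 of 7 collections. The ranges overlapped for both genes, and the highest values came from the single P11 Unclassified cell. The log2 fold change was 0.90 for Jun with an SE of 0.17 (edgeR adjusted p = 6.46e-05) and 1.25 for Egr1 with an SE of 0.31 (edgeR adjusted p = 0.0206). All genes were called at a share of 2.17%, 256 of 260 of them higher in Unclassified cells.

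Fos was higher in 7 of 7 collections and did not pass, at 0.79 (SE 0.29, edgeR adjusted p = 0.212), and Junb stood at 0.71 (SE 0.23, edgeR adjusted p = 0.0681). Fos passed without P29 male (0.88) or P38 male (0.98), and Junb passed without P30 female (0.80), with an edgeR adjusted p of 0.00298, 0.000875 and 0.0265. The 10 genes had positive values in 10 of 10 cases with a median of 0.66, against 0.14 over all genes. Of 7 AP-1 relatives 1 rose, Jund, the third JUN gene, at 0.76, and of 2 EGR relatives 1 rose, Egr2 at 2.12. Of 11 NR4A and activity genes 2 rose, Nr4a1 at 0.91 and Gem at 1.11, and of 4 other MAP kinase phosphatases 1 rose, Dusp6 at 1.41. The other members of these lists did not pass. Of 24 other early response genes 9 rose, led by Zfp36l1 at 1.70, Socs3 at 1.46, Zfp36 at 1.28 and Btg1 at 0.83. None of 14 upstream kinases and factors was called (edgeR, 1 at an unadjusted p under 0.05).

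In the same contrast 6 of 13 glial genes rose, led by Sostdc1 at 1.75, Ednrb at 1.16, Sox10 at 1.90 and S100b at 1.09, as did 3 of 5 endothelial and 2 of 4 smooth muscle and pericyte genes. Few cells carried the last 2 lists. The endothelial list had a median of 0.364 and a highest value of 8.26 per Unclassified cell, against medians of 0.348 to 0.523 in the noradrenergic identities. The smooth muscle and pericyte list had a median of 0 and a highest value of 12.4. With the glial level as a covariate Jun stood at 0.47 and Egr1 at 0.64 (edgeR adjusted p = 0.505 and 0.175), and 0 of the 10 genes passed. Calls over all genes fell in that fit too, as given in the last section, and the cause of the loss was not tested. The covariate itself differed between the groups, with a glial median of 26.9 in Unclassified cells against 4.95 to 9.61 in the noradrenergic identities. The call of Egr1 ended without P11 (1.03, edgeR adjusted p = 0.0534), P16 (1.18, 0.0544), P31 female (1.24, 0.200) or P33 female (1.18, 0.0579). That of Jun ended without a term for the collection (0.93, edgeR adjusted p = 0.0872) and with DESeq2 (1.05, adjusted p = 0.0627). It also ended with RLE size factors and with the filterByExpr filter on low counts.

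Within Noradrenergic3, the largest identity, 5 of the 10 genes differed between collections by more than between chips of a collection. The 14 chips with at least 3 such cells came from 7 collections, and P11, P33 and P34 were represented by 1 chip each. Fos passed at an edgeR adjusted p of 3.02e-08, Fosb at 1.10e-07, Atf3 at 1.78e-05, Dusp1 at 2.37e-05 and Btg2 at 0.00117. Of all 9988 genes tested 4.6% were called. Jun (edgeR adjusted p = 0.226), Junb (0.499), Egr1 (0.753), Ier2 (0.914) and Ier3 (0.768) were not called. Chips of a collection may share animals and a dissociation, so these p-values measure the spread between chips.

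Fos stood at 0.618 counts per 10000 in the 6 Noradrenergic3 cells of P11, and at 4.32 in P29 male, 3.12 in P30 female, 3.15 in P31 female, 3.12 in P33 female, 2.65 in P34 female and 3.66 in P38 male. Among chips with at least 3 such cells, those of other ages, at 2.27 to 5.16, lay above the P11 chip, including those of P31 female, at 2.27 to 4.41, which share its chip number series. Dusp1 had the same shape, with 0.176 in P11, 1.77 in P29 male, 1.80 in P30 female, 1.39 in P31 female, 0.856 in P33 female, 1.63 in P34 female and 1.37 in P38 male. Btg2 had 0 counts of 226695 in P11, which allows up to 0.132 per 10000 at 3 counts, while the other collections ran from 0.184 in P33 female to 0.771 in P29 male. For these 3 genes the P11 collection was the low one. It also had the lowest pooled value for Fosb, Jun, Junb, Egr1, Atf3, Ier2 and Ier3. Egr1, for instance, stood at 0.309 in P11 against 1.04 in P31 female, the next lowest. The margin was narrow for Ier2, at 0.0882 against 0.0992 in P38 male, and by the mean over chips P38 male was lower (0.0687). Of these further genes only Fosb and Atf3 were called between collections.

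Fosb and Atf3 varied among the later ages too. Fosb had 0.176 in P11, 1.00 in P29 male, 1.85 in P30 female, 0.675 in P31 female, 0.398 in P33 female, 1.45 in P34 female and 0.794 in P38 male. Atf3 had 0.0441 in P11, 0.467 in P29 male, 0.839 in P30 female, 0.313 in P31 female, 0.214 in P33 female, 1.28 in P34 female and 0.480 in P38 male. P30 female and P34 female were the high collections for both genes, and in P34 this rests on 3 cells. The fibroblast list, 6 genes, had its highest pooled values in the same collections, at 8.30 per 10000 in P30 female and 4.19 in P34 female, against 0.116 to 2.26 in the other 5. Few cells carried these values, since the median cell stood at 0.272 and the highest at 98.9 in P30 female, and at 0.531 and 10.4 in P34 female. The list's part in the values of Fosb and Atf3 was not tested. The spread between chips was wide, since Fosb differed by up to 17.7-fold between chips of a collection. That ratio came from P38 male and is uncertain, because its lower chip held 1 count of Fosb in 4 cells.

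**Figure D3:**
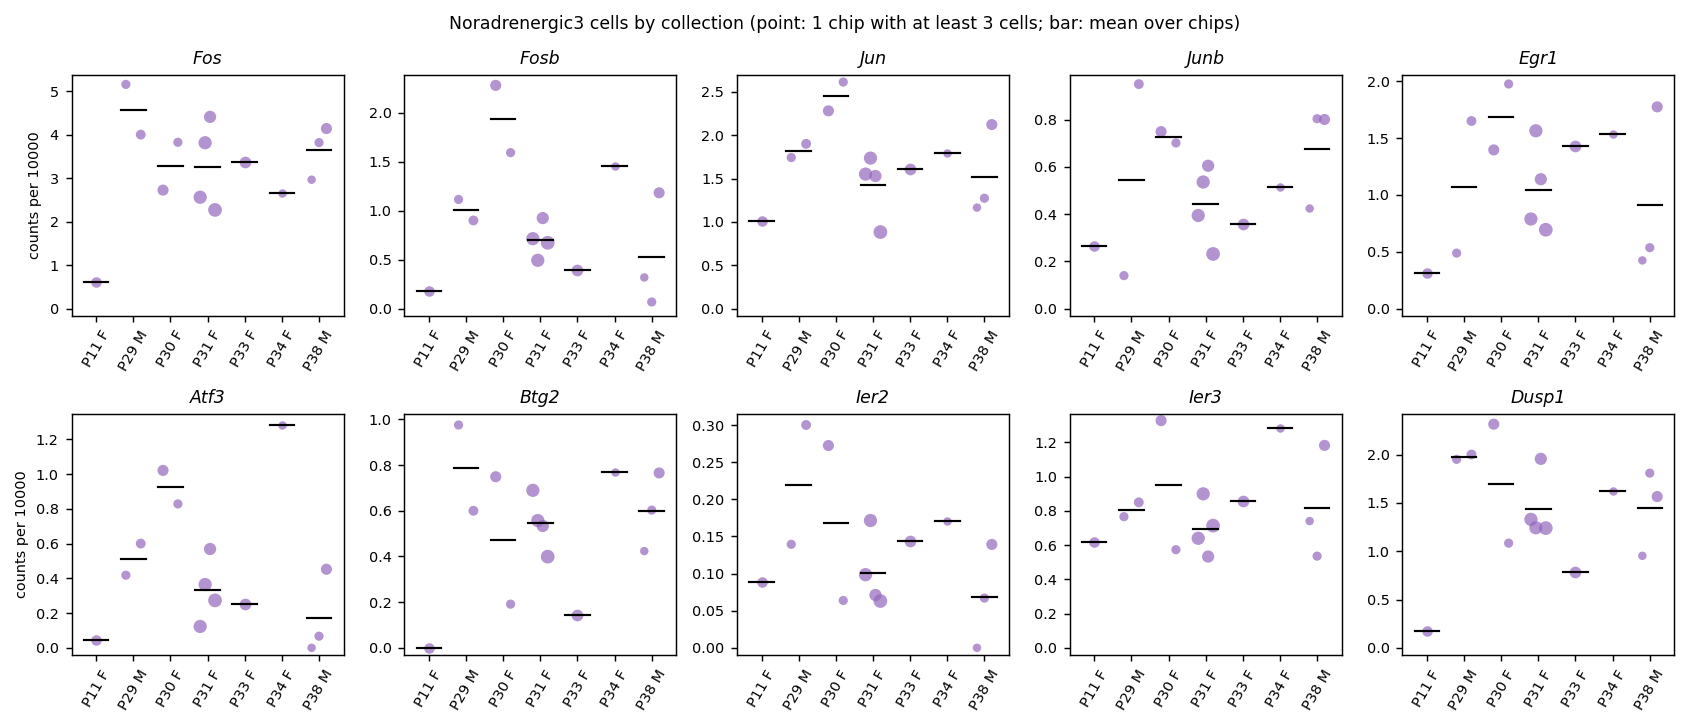
Levels of the 10 genes in Noradrenergic3 cells in counts per 10000 (vertical axes, linear, separate scales) by collection in order of age (horizontal axes, F female and M male). A point is 1 chip with at least 3 such cells, larger for more cells, a bar is the mean over chips, and the P11 chip is lowest for Fos, at 0.618 against 2.27 to 5.16 elsewhere.

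Without P11 the calls of Fos, Dusp1 and Btg2 ended (edgeR adjusted p = 0.671, 0.497 and 0.479), while Atf3 and Fosb stayed called (0.00329 and 0.00927). Fosb was lost without P29 male (edgeR adjusted p = 0.0576), and Fos and Atf3 were lost on chips with at least 5 cells (0.0783 and 0.0698), a fit with fewer chips. With cells thinned to 15000 counts Btg2 was lost (edgeR adjusted p = 0.287). The glial list stood at 3.57 per 10000 in the P11 cells, with Sox10, Erbb3, Foxd3, Ednrb and Kcnj10 among the genes at 0, against 10.0 to 15.9 in the other collections. With that level as a covariate all 5 genes were still called, with an edgeR adjusted p of 6.11e-05 for Fos, 6.34e-07 for Fosb, 0.000289 for Atf3, 0.000464 for Dusp1 and 0.00227 for Btg2. Median totals per cell in these collections ran from 33034 to 38426. The summed sympathetic marker list stood at 306 in P11, against 311 to 375, and 2 of its 10 genes were called between collections, Slc6a2 and Dbh (edgeR adjusted p = 6.61e-10 and 3.53e-09).

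The 3 other noradrenergic cells of P11 had Fos at 1.99, Dusp1 at 0.166 and Btg2 at 0, and the single Unclassified P11 cell had Fos at 14.3. The high Fos value of P11 thus came from 1 cell of another identity, in which other collections had 5.00 to 7.35. In other collections with at least 2 of these noradrenergic cells, Fos ran from 3.56 in P33 female to 6.16 in P29 male. Dusp1 ran from 0.663 in P30 male to 2.36 in P29 male, and Btg2 from 0.250 in P33 female to 0.835 in P31 female. Single cells of P16, P20 and P34 had Fos at 4.28, 1.98 and 1.22. DESeq2's likelihood ratio test called Fos (adjusted p = 0.000451), did not call Jun (adjusted p = 0.525) and gave no adjusted p for the other 8 genes. Its unadjusted p for the 4 others called by edgeR was 0.000304 for Fosb, 0.000291 for Dusp1, 0.00111 for Atf3 and 0.00169 for Btg2. Among 23 other early response genes tested 7 differed between the collections by edgeR, led by Klf4, Nfkbia, Ier5 and Gadd45g, of which Klf4 ran from 0.132 in P11 to 2.74 in P34. None of 7 AP-1 relatives, 10 NR4A and activity genes, 4 MAP kinase phosphatases or 12 upstream kinases and factors was called by edgeR, with 2, 1, 1 and 3 of them at an unadjusted p under 0.05. Markers of other cell types were called in the same test, namely 3 of 10 glial genes tested (Ednrb among them), 2 of 5 fibroblast genes (Col1a1 and Col1a2) and 1 of 2 endothelial genes (Flt1), and 0 of 3 smooth muscle and pericyte genes (edgeR, 1 at an unadjusted p under 0.05). So were 2 of 10 axon injury genes, Gap43 and Il6. Apart from the glial covariate, the part of these in the values of the 10 genes was not tested.

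The stretch before the start of transcription is shown for the 5 genes that differed between collections, because the factors that the kinase pathways act on bind there. In RefSeq's table for GRCm38.p6, 8 of the 10 genes were matched and used, and each line gives the 250 bases before the start, 5′ to 3′. Capitals mark TGACG on either strand, the core of the cAMP response element (in full TGACGTCA, which contains it), and TATAAA on the gene's strand.

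Fos (chr12:85473640-85473889, plus strand): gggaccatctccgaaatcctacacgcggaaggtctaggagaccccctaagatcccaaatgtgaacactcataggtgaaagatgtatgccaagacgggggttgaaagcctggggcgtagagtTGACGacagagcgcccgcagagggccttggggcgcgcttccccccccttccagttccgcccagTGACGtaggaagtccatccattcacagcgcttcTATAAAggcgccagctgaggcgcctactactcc

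Fosb (chr7:19310046-19310295, minus strand): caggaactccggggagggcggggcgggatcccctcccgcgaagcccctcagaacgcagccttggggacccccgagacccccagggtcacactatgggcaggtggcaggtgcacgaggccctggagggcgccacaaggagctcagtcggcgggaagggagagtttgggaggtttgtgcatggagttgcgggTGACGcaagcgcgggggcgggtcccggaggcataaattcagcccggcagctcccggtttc

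Atf3 (chr1:191183334-191183583, minus strand): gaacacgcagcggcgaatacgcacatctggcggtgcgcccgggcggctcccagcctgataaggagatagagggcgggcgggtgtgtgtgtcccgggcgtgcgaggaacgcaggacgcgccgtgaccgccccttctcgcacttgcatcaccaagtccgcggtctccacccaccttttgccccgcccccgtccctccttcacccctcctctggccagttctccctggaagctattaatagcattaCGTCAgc

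Btg2 (chr1:134079156-134079405, minus strand): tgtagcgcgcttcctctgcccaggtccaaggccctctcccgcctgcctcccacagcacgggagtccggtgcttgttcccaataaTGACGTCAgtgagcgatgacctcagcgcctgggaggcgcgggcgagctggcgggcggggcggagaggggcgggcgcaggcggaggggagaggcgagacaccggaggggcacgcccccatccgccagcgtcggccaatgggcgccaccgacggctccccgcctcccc

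Dusp1 (chr17:26508473-26508722, minus strand): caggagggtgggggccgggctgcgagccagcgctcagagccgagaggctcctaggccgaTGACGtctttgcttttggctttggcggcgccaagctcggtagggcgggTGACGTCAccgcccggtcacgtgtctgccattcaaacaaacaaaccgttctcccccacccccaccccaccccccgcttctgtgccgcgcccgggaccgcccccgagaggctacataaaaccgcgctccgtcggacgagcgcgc

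TGACG was present in 6 of 8 promoters of these genes, namely all 5 printed here and that of Junb, and in 17.8% of 32851 promoters of this length. The full TGACGTCA occurred in Btg2 at position -166 and in Dusp1 at position -143 from the start, and in 1.55% of all promoters. TATAAA occurred in Fos at position -33 and in 7.59% of all promoters. The AP-1 site TGACTCA and the CArG box, searched on both strands, were in 0 of the 8 windows and in 4.46% and 1.47% of all promoters. The promoters of the 8 genes held 54.4% to 73.2% G and C, against a median of 52.4% over all, and TGACG holds a CpG. A match is a run of letters and not a measured site, and a window without a match says nothing of the factor.

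None of the 10 genes was called between male and female Noradrenergic3 cells. Over 2 male and 5 female collections, edgeR called 0 of 10 genes and DESeq2 0, with 0 at an unadjusted edgeR p under 0.05, where 0.0296% of 10141 genes were called. Fos stood at 0.58 (SE 0.44), Junb at 0.54 (SE 0.30) and Btg2 at 0.75 (SE 0.53) for male over female cells (edgeR adjusted p = 1.00 for each). Male cells were caught only on chips of 1 of the 2 number series. On that series Fos was 4.32 and 3.66 in the male collections, against 3.12 and 2.65 in the female ones of P30 and P34. P33 female had 1 such cell on each of 2 chips of that series, with Fos at 1.87 and 1.41. The female collections tested included P11, where Fos was 0.618. The P16 cells held no Noradrenergic3 cell and did not enter.

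Cell by cell, the 10 genes varied together in Noradrenergic3. Over these cells the Spearman correlations between 2 genes were positive for 45 of 45 pairs, with a median of 0.31. Fos and Egr1 were the closest pair at 0.70, followed by Jun and Egr1 at 0.68, and Ier2 and Ier3 the most distant at 0.06. After the chip means had been subtracted the median was 0.33. Fos, Jun, Egr1 and Atf3 formed the closest group, while Ier3 correlated with the others at 0.06 to 0.30. These are descriptions over cells that share collections, chips and total counts, and most genes have few counts per cell.

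**Figure D4:**
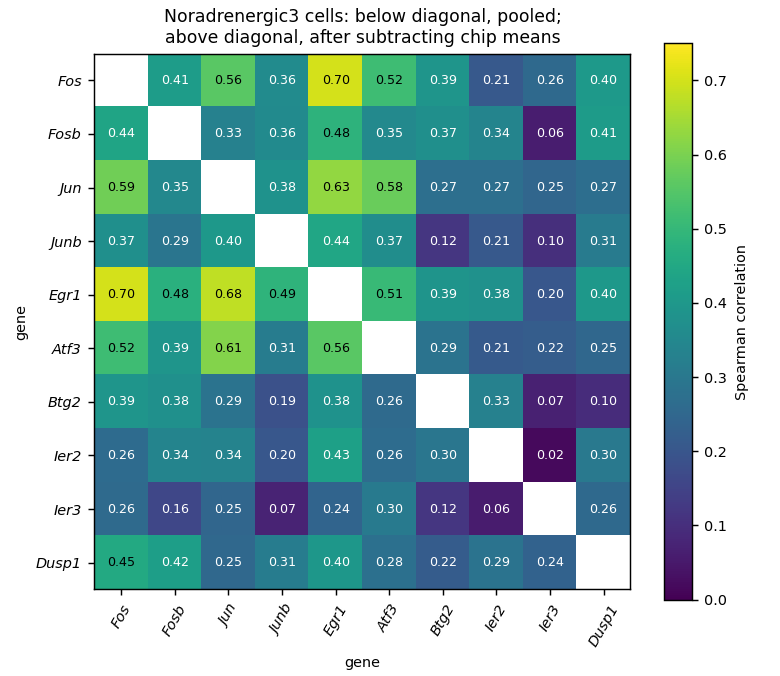
Spearman correlation (colour scale) between the levels of each pair of the 10 genes over the Noradrenergic3 cells, pooled below the diagonal and after subtracting chip means above it. The pair of Fos and Egr1 is highest at 0.70, and Ier2 with Ier3 is lowest at 0.06 in the pooled cells.

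Genes whose level followed the sum of the 10 genes most closely were ranked over the same cells, among 6480 genes with a count in at least 50% of them. Sparc was first at 0.58, and the first 10 also held Apoe at 0.57, Mt1 at 0.56 and Klf4 at 0.56. Nr4a1 (0.49), Dbi (0.48), Vim (0.48), Id3 (0.47) and Gadd45g (0.40) were among them too. Apoe belongs to the satellite glia and Schwann list. Klf4, Nr4a1 and Gadd45g belong to the lists of other early response and activity genes, and Mt1 encodes a metallothionein. After chip means had been subtracted 9 of the 10 were again among the first 10.

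The sum of the 10 genes correlated with the summed glial list at 0.58 over the Noradrenergic3 cells and at 0.53 to 0.65 in the other noradrenergic identities and the Unclassified cells, while its correlation with total counts in Noradrenergic3 was 0.08. Egr1 followed the glial list most closely, at 0.67, and Dusp1 least, at 0.22. In the 26 Noradrenergic3 cells with the most glial counts, from 16.6 upward, the median sum was 15.2. In the 25 cells with the fewest, up to 3.53, it was 4.99 and still ran up to 20.3. Low glial counts therefore occurred with sums from 1.43 to 20.3. The part of glial RNA in the levels of these genes was not tested beyond the covariate fits above.

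**Figure D5:**
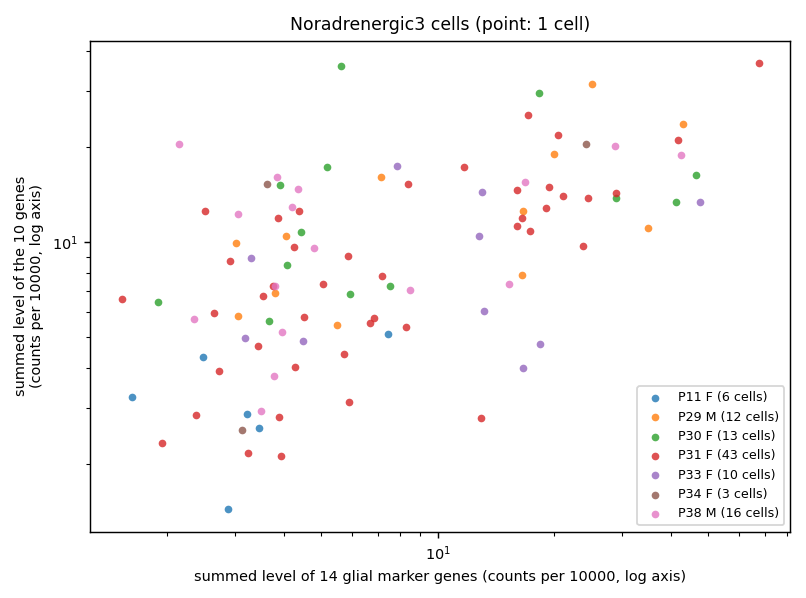
Summed level of the 10 genes (vertical axis) against the summed level of 14 glial marker genes (horizontal axis) in the Noradrenergic3 cells, both in counts per 10000 on log axes, coloured by collection. Cells with more glial counts sit higher (Spearman 0.58), and the 6 P11 cells have glial sums of 1.62 to 7.43 and sums of the 10 genes of 1.43 to 5.12.

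In the small identities single cells carried much of the level. A P29 male Ach1 cell had the highest sum of all 298 cells, 81.2, with 79 counts of Fos and 28 of Fosb, and a glial sum of 64.99. The next 3 were Unclassified cells, at 56.9, 55.95 and 54.5, and the highest Glutamatergic cell, from P29 male, followed at 53.2. The 8 Ach1 cells ran from 4.04 to 81.2, the 8 Ach2 cells from 17.8 to 46.9 and the 4 Glutamatergic cells from 11.4 to 53.2. The lowest Ach2 cell, from P30 female, had a glial sum of 5.07, against 12.7 to 49.2 in the other Ach2 cells.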

How the data were processed

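The files held 1 table of counts, 16892 genes by 298 cells, deposited by the authors as whole numbers per gene and cell, with no normalization, and 704 genes had no count. The build was mm10, per the submitters' processing notes, and the aligner and counting settings are not given in the sources used here. Cells were captured on 24 microfluidic chips, 207 labelled female and 91 male. Doublets were not called, because per the labels' protocols capture sites were inspected by eye and only single cells were kept.

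Counts were summed over the cells of an identity within a collection, giving 44 libraries, 16 of them single cells, or 51 with the Unclassified cells. edgeR 4.0.16 (quasi-likelihood F test, robust, TMM, R 4.3.3) was fitted to genes with at least 20 counts and a count in at least 3 libraries, with terms for identity and collection. P-values were two-sided, adjusted by Benjamini and Hochberg over all genes tested, and called under 0.05. The SE is the absolute log2 fold change divided by the square root of F. In Noradrenergic3, sex was tested over 7 collections and collections were tested over 14 chips, each with at least 3 such cells. DESeq2 1.42.0 was an alternative. Levels are counts per 10000, and their SD is over collections. The labels name no animals, so no p-value measures the spread between animals. In the fits of identities, p-values measure the spread between libraries left after the terms for identity and collection. In Noradrenergic3 they measure the spread between collections for sex and between chips for collections. Intervals and limits cover counting error only.

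The collection was kept as a block because libraries of the same collection deviated together. Over 4296 genes the correlation of deviations was 0.177 to 0.222 for 4 pairs of the same collection, against a mean of -0.04 for 20 pairs of different collections. The scripts were tested on simulated data. The 10 genes and the other gene lists were chosen with earlier results of these data known. Named outside the 10 genes were at most 4 called genes per list and comparison, lowest p first, and the 10 genes closest to the sum of the 10 over cells. Values of some genes under these rules are not reported here.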

Additional observations from a re-analysis of the deposited data

Results flagged for a closer look

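In groups of 4 to 7 collections, 80 combinations of gene and identity were checked for a collection far from the others by Dixon's criterion. Chance meets it in about 1 of 20 when values are normal and equally spread. The pools held 1 to 43 cells, so that rate may not hold here. The criterion was met in 11 combinations. Of these, 3 came from 1 Ach1 cell of P29 male, with Atf3 at 5.416 counts per 10000 (others 0 to 0.890), Btg2 at 3.75 (others 0 to 1.44) and Fosb at 11.67 (others 0 to 1.25). Another 3 came from the single Unclassified cell of P11, with Egr1 at 9.834 (others 3.01 to 5.59), Fos at 14.3 (others 5.00 to 7.35) and Jun at 8.493 (others 2.42 to 4.36).

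Atf3 met it in 3 further identities, at 3.588 in the 2 Noradrenergic1 cells of P29 male (others 0.616 to 1.15), at 1.282 in the 2 Noradrenergic2 cells of P30 female (others 0 to 0.488) and at 2.186 in the 2 Unclassified cells of P16 (others 0.143 to 0.868). Ier2 met it at 0.7696 in Noradrenergic1 of P38 male, from 5 counts (others 0 to 0.0884), and at 0.2355 in Noradrenergic4 of P11, from 1 count (others 0 to 0.0556).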

How the results depend on the processing

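No result changed direction past the threshold under the alternatives run, and the cause of each change was not tested. Of the 10 genes, cholinergic against noradrenergic cells gave 2 calls, 0 with libraries of at least 2 cells or thinned cells, 1 with the glial covariate and 1 to 3 with a collection left out. Glutamatergic cells gave 2, 1 with no filter, filterByExpr or thinned cells, 0 with the glial covariate or no replicate block, and 0 to 4 with a collection left out. Ach1 against Ach2 gave 1, 0 with RLE size factors, filterByExpr, DESeq2, larger libraries, thinned cells, no replicate block or chips as the block, and 0 to 1 with a collection left out. Noradrenergic1 gave 2, 0 with filterByExpr, DESeq2, thinned cells or no replicate block, 1 with chips as the block, and 0 to 2 with a collection left out. With larger libraries Noradrenergic3 gave 2 and Noradrenergic4 gave 1, against 0 each, and Noradrenergic4 gave 0 to 1 with a collection left out. Unclassified cells gave 2, 1 with RLE size factors, filterByExpr, DESeq2 or no replicate block, 4 with larger libraries or chips as the block, 0 with the glial covariate, and 1 to 3 with a collection left out. Collections in Noradrenergic3 gave 5, 1 with DESeq2, which gave 8 genes no adjusted p, 3 on chips of at least 5 cells, 4 with thinned cells and 2 to 5 with a collection left out.

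Counts over all genes moved by more than 1.5 times as well. With thinned cells they were 293 for cholinergic (528), 49 for Noradrenergic1 (161), 85 for Noradrenergic2 (189), 58 for Noradrenergic4 (145), 65 for Noradrenergic5 (163) and 156 for collections (459), and Unclassified (260) also fell past that bound. Larger libraries gave 279 for cholinergic, 184 for Glutamatergic (304) and 242 for Noradrenergic1. DESeq2 gave 5 for Ach1 against Ach2 (16), 114 for Noradrenergic2, 109 for Noradrenergic3 (201), 99 for Noradrenergic5, 49 for Unclassified and 155 for collections, and filterByExpr gave 3, 81, 81, 82 and 95 for the first 5 of these. The glial covariate gave 28 for Unclassified, the fit with chips as the block gave 326 for Noradrenergic3, and male against female gave 8 with no filter (3). Leaving out a collection gave 348 to 567 for cholinergic, 91 to 360 for Glutamatergic, 49 to 301 for Unclassified and 127 to 451 for collections. In the fit of the identities 16 of 44 libraries hold 1 cell, which limits its precision.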
